A study of Mus musculus with 5 samples.

Results

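DNase I hypersensitive sites were examined in 3 mouse gene clusters that belong to other cell types than the fibroblasts studied: olfactory receptor genes on chromosome 2, type I keratin genes on chromosome 11 and type II keratin genes on chromosome 15. A peak counted as a member when it overlapped 85300000 to 89700000 on chromosome 2, 99200000 to 100100000 on chromosome 11 or 101200000 to 102000000 on chromosome 15 of mm9. Merging peaks that overlapped between lists gave 61 member sites of 52181 in all, with 0 in the olfactory receptor cluster, 20 in the type I keratin cluster and 41 in the type II keratin cluster. The olfactory receptor cluster was bare in every list, the type I keratin cluster was sparse beside dense surroundings, and the type II keratin cluster held strong sites near its edges and almost none in its middle.

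The series profiled open chromatin in 3T9 fibroblasts, a line grown from E13.5 mouse embryos of mixed strain. All cells were c-mycflox/flox and had been infected in vitro with MycER, a fusion of Myc to the hormone-binding part of the estrogen receptor that 4-hydroxytamoxifen (4-OHT) switches on. In DNase-seq, nuclei are cut with DNase I and the short fragments from open chromatin are sequenced. The 2 groups were ethanol vehicle at 0 h and 400 nM 4-OHT for 4 h, each with 2 libraries of this 1 line, and the fifth sample, an input of sonicated DNA, was not used here. Nothing in the labels says that the libraries came from separate cultures. Of the 4 deposited lists, 2 were one and the same: EtOH 0 h replicate 2 and 4-OHT 4 h replicate 1 shared all 44956 intervals and scores. That list was counted once and is called the list under both labels. The other two are called the vehicle list (EtOH 0 h replicate 1, 35149 peaks) and the 4-OHT list (4-OHT 4 h replicate 2, 47621 peaks). With 1 undisputed list per treatment there was no replicate check and no test between treatments, and treatment cannot be told apart from the letter B that only the title of the 4-OHT library of these 2 carries.

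Olfactory receptors are G protein-coupled receptors for odorants, and each olfactory sensory neuron expresses a single receptor gene out of a very large family that lies in tandem arrays. Keratins are the intermediate filament proteins of epithelia: an acidic type I chain pairs with a basic type II chain, and most genes of each type sit side by side in a cluster of their own, except that the type I gene Krt18 stands at the end of the type II cluster next to its partner Krt8. Keratin pairs mark kinds of epithelium, such as Krt8 with Krt18 in simple epithelia, Krt5 with Krt14 in basal layers and Krt1 with Krt10 in differentiating epidermis, while hair keratins and keratin associated proteins build the hair shaft. Fibroblasts use vimentin as their main intermediate filament instead.

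The limits of the clusters could not be checked against gene positions, because the annotation at hand was of another build (GRCm38.p6), from which only gene order was taken. In that order, RefSeq lists 293 olfactory receptor genes in one run on chromosome 2, from Olfr987 to Olfr1274, of which 222 are protein coding and 71 pseudogenes. Only 3 other protein-coding genes stand in the run. Its neighbours are Ssrp1, Tnks1bp1, Aplnr and Lrrc55 before it, and Ptprj, Nup160, Fnbp4 and Agbl2 after it. The type I run holds 27 keratin genes from Krt222 to Krt42. Its order starts with Krt222, Krt24 and Krt25, passes Krt10, Krt12, Krt20 and Krt23, and ends with Krt15, Krt19, Krt9, Krt14, Krt16, Krt17 and Krt42. Between Krt40 and Krt33a lies a block of hair shaft genes that includes all 23 genes named Krtap in the run. The type II run holds 27 keratin genes from Krt80 to Krt18, of which 26 are protein coding. It begins with Krt80 and Krt7, continues through the hair keratins Krt81 to Krt86 to Krt6b, Krt6a and Krt5, then Krt1 and Krt4, and ends with the type II gene Krt8 and the type I gene Krt18. Which site lies on which gene was not analysed here.

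The DNA just before the start is shown for 1 gene of each family. Sequences are the 250 bases before a RefSeq start (GRCm38.p6), 5′ to 3′ on the gene's strand, with each CpG dinucleotide and the TATA box motif TATAAA in capitals. Olfr1030 and Krtap9-3 are the first genes in genome order with their family's median number of CpG (for Olfr1030, among starts that are not a start codon). Krt14 (type I) and Krt5 (type II) are the keratin pair of basal epithelium, shown as examples that need not be typical of their families.
Olfr1030: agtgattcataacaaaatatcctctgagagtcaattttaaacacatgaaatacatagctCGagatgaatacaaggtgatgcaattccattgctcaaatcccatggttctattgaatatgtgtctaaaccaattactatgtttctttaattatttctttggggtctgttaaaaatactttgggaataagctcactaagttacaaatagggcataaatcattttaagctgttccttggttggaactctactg
Krtap9-3: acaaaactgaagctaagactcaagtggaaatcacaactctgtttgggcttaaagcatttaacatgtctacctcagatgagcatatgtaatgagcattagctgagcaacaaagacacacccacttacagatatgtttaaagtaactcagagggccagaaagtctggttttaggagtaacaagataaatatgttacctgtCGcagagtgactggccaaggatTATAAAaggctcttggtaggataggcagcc
Krt14: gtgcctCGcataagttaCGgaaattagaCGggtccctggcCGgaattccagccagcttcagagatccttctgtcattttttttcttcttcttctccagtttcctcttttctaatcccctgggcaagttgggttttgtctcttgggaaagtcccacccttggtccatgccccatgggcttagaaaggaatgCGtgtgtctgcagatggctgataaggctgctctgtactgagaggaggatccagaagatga
Krt5: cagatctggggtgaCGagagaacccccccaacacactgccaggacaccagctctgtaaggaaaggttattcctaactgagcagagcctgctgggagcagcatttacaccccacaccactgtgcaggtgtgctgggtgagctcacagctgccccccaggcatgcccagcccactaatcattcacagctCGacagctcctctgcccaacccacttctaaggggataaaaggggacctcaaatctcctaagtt
The stretch before Olfr1030, on the plus strand of chromosome 2, has 1 CpG and 32.8% G or C. That before Krtap9-3, on the minus strand of chromosome 11, also has 1 CpG, with 40.8% G or C and a TATAAA whose first base lies 30 bases before the start. Krt14, on the minus strand of chromosome 11, has 5 CpG and 49.6% G or C, and Krt5, on the minus strand of chromosome 15, has 2 CpG and 56.0% G or C.

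Few CpG before the listed start were the rule among the receptor genes. A promoter entry was found for 186 of the 222 coding receptor genes (83.8%), with 187 starts. These had a median of 1 CpG (range 0 to 7) and 30.8% G or C, and 46.0% had no CpG at all. Over all 32851 RefSeq starts the median was 6 CpG (range 0 to 56) with 52.4% G or C, and 7.87% had none. At 69.5% of the receptor starts, against 5.83% of all starts, the listed start is an ATG, so many receptor entries begin at the coding sequence and not at a mapped transcription start. The stretches before these are not known to be promoters. Before the 57 receptor starts that are not an ATG, the median was also 1 CpG (range 0 to 4), and 38.6% had none. The motif TATAAA stood on the gene's strand in 32.1% of the receptor stretches and on either strand in 51.9%, against 7.59% and 12.4% of all starts. Wholly within the bases 45 to 16 before the start it stood in 1.60% of the receptor stretches and 2.14% of all. Before the 57 receptor starts that are not an ATG, it stood on the gene's strand in 24.6%, on either strand in 43.9% and within those bases in 0%. The Krtap genes (21 of 23 matched, 21 starts) likewise had a median of 1 CpG (range 0 to 4), but 95.2% held TATAAA. In 85.7% (18 of 21) it lay wholly within the bases 45 to 16 before the start. A smaller share of the keratin genes had an entry, 20 of 27 of the type I run (74.1%) and 16 of 27 of the type II run (59.3%). No summary is given for them.

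**Figure D1:**
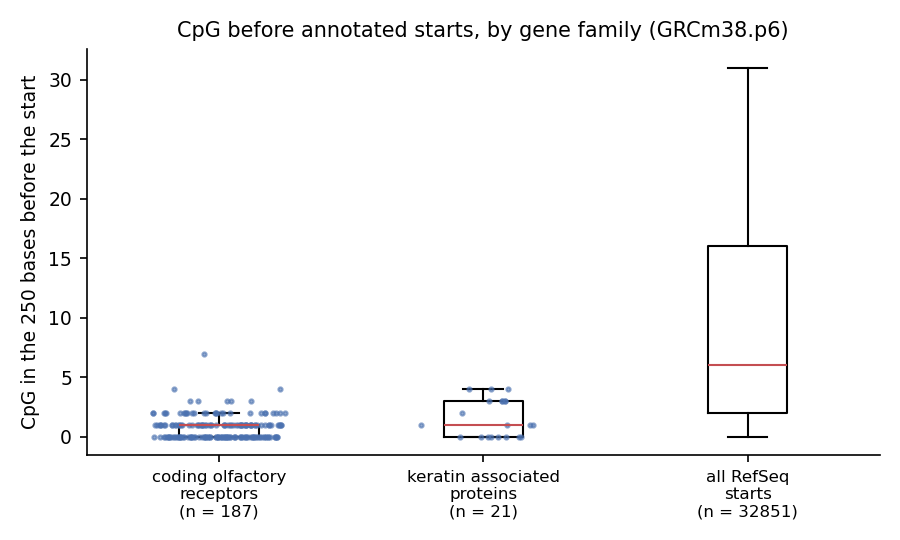
Number of CpG dinucleotides in the 250 bases before the start (vertical axis) for 187 starts of coding olfactory receptor genes, 21 starts of keratin associated protein genes and all 32851 RefSeq starts (GRCm38.p6). Points are starts (not drawn for all starts, and spread sideways only for display), and boxes span the quartiles with the median in red. Whiskers extend beyond the boxes, and values of the whole set that lie past the whiskers are not drawn. Both families have a median of 1 CpG, against 6 over all starts.

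No peak of any list lay in the olfactory receptor cluster. Over its 4.4 Mb the count of sites was 0 in the vehicle list, 0 in the list under both labels and 0 in the 4-OHT list. A count of 0 is taken to allow up to 3 sites, or 0.682 per Mb, which is a one-sided limit. The exact two-sided Poisson 95% interval, used for the other densities, reaches further, to 0.838 per Mb. Flanks of the same length held 50 sites on the left (11.4 per Mb) and 202 on the right (45.9 per Mb), or 28.6 per Mb together (exact Poisson 95% interval 25.2 to 32.4). The rest of chromosome 2, taken here from its first to its last peak without the cluster and its flanks, held 4046 sites over 165 Mb, or 24.5 per Mb. With that floor of 3 sites, the cluster was at least 42.0-fold lower in density than both flanks together, at least 16.7-fold lower than the left flank, at least 67.3-fold lower than the right flank and at least 35.9-fold lower than the rest of the chromosome. The two-sided exact 95% interval of the density ratio, which was 0, is wider and reached up to 0.0295 against both flanks, 0.0766 against the left flank, 0.0184 against the right flank and 0.0343 against the rest. In single lists its upper end against both flanks was 0.0431 (vehicle), 0.0331 (both labels) and 0.0334 (4-OHT). These intervals and floors cover counting error only, and neighbouring sites are not independent of each other. Read depth is unknown and no source used here gives the treatment of reads that map to several places, so a missing peak means not detected. The part that mapping could play in an array of similar genes was not tested.

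The bare region was wider than the cluster. It ran from 84964620 to 90235129 on chromosome 2, 5271 kb without a peak in any list, starting 335 kb before the cluster's left limit and ending 535 kb after its right one. In single lists it measured 5295 kb (vehicle), 5288 kb (both labels) and 5271 kb (4-OHT). It was the longest such stretch of 4297 on chromosome 2 and ranked 12 by length among the 52160 of the genome, where the median was 11.8 kb. Only 14 stretches reached 5 Mb and 348 reached 1 Mb. Among 567 windows of 4.4 Mb laid end to end over the chromosomes, 10 (1.76%) were empty, and the median window held 72 sites. On chromosome 2, the emptiest of 40 such windows held 2 sites, and the median was 82. These windows lay on a fixed grid that split the receptor cluster between neighbouring windows, which also held flank sites. The 14 stretches of 5 Mb or more also lay on other chromosomes, the longest on chromosome X with 10027 kb.

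The 2 flanks of the receptor genes differed in how their sites were spread. In steps of 1.1 Mb from left to right, the left flank held 0, 0, 8 and 42 sites, and the right flank held 28, 59, 57 and 58. The left flank thus had its own bare outer part, while each step of the right flank held sites. The steps next to the cluster include parts of the bare stretch, 335 kb on the left and 535 kb on the right. Their counts therefore do not compare how densely sites resumed beyond it. The last site before the bare stretch, at 84963764 to 84964619, was found in the 4-OHT list alone with a score of 122. The deposited score is the peak caller's own value, from 80 upward with a pile-up at 3100, and a site takes its highest peak's score in each list. The first site after the stretch, at 90235130 to 90235514, was in all lists, with 244 in the vehicle list, 220 in the list under both labels and 200 in the 4-OHT list. Both border sites were weak by the median site scores of the whole lists (342, 371 and 327). Sites at the score ceiling lay further out on both sides: 84554433 to 84556861 and 90584647 to 90586654 scored 3100 in all 3 lists. Of the flank sites, 163 of 252 (64.7%, Wilson 95% interval 58.6 to 70.3) were in all 3 lists, against 61.1% of all sites.

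**Figure D2:**
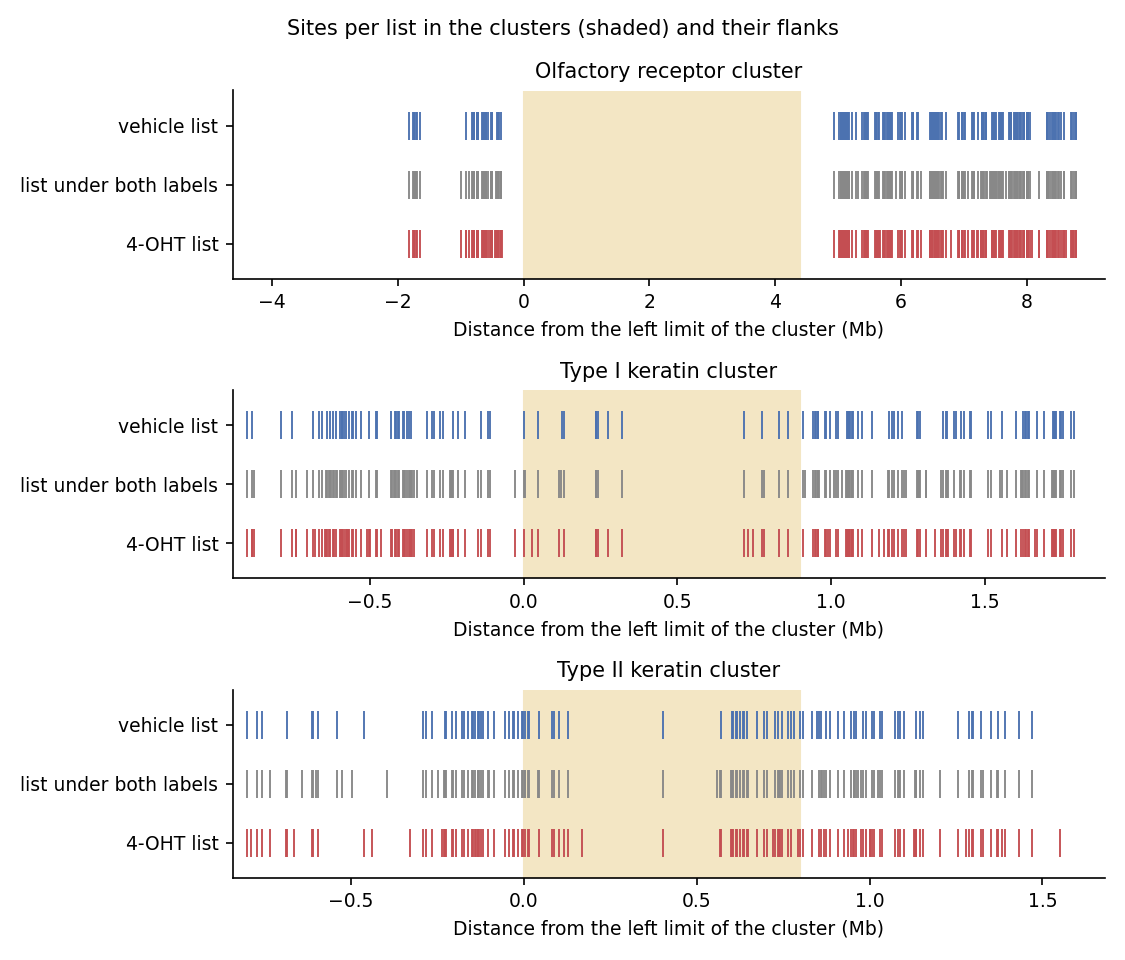
Position of each site by list (rows of ticks) against the distance from the left limit of each cluster in Mb (horizontal axis), with the cluster shaded and a flank of the same length on each side. The receptor cluster holds no tick in any list, and in both keratin clusters the ticks gather toward the sides and leave a bare middle.

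The type I keratin cluster was thinly populated within a dense part of chromosome 11. Its 0.9 Mb held 20 sites, or 22.2 per Mb (95% interval 13.6 to 34.3), against 86.7 per Mb in the left flank and 92.2 in the right. By list the cluster had 14.4 sites per Mb (vehicle), 16.7 (both labels) and 18.9 (4-OHT). The left flank had 50.0, 74.4 and 82.2 in the same order, and the right flank 64.4, 85.6 and 83.3. The cluster was below both flanks in each list, and the density ratio to both flanks together was 0.248 (exact 95% interval 0.148 to 0.397), with 0.252, 0.208 and 0.228 in the single lists. Peaks covered 1.84%, 2.08% and 2.34% of the cluster, against 9.24% to 14.1% of a flank. Against the rest of the chromosome (34.7 per Mb) the difference was smaller, with a ratio of 0.640 (0.391 to 0.990). The interval nearly reaches 1. It included 1 in the vehicle list alone (0.644, 0.343 to 1.10), with lists of equal length (0.622, 0.348 to 1.03), with peaks within 500 bp merged (0.650, 0.391 to 1.02) and with longer flanks (0.656, 0.400 to 1.01). Windows of this length with 20 or fewer sites were common: 1865 of 2833 over the genome (65.8%) and 57 of 131 on chromosome 11 (43.5%). The cluster was thus sparse for its neighbourhood and not for the genome.

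Within the type I cluster the sites stood on the sides. Cut into 3 equal pieces of 300 kb, it held 12 sites on the left (40.0 per Mb), 1 in the middle (3.33 per Mb) and 7 on the right (23.3 per Mb). The longest stretch without a site ran from 99521595 to 99916586, 395 kb. In the gene order, the hair shaft genes of the Krtap block stand in the middle of the run, but the 2 orders were not matched by position. It ranked 858 by length among the 52160 stretches of the genome and 26 on chromosome 11.

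Of the 20 sites, 11 were found in all 3 lists, and every one of these scored lowest in the vehicle list. The site at 99202656 to 99204611, close to the left limit, scored 825 in the vehicle list, 2496 in the list under both labels and 2090 in the 4-OHT list. The site at 99519438 to 99521594, the last one before the bare middle, scored 820, 1992 and 2035 in the same order, which is kept below. Both lay well above the lists' medians in all lists. The site at 99246917 to 99248416 followed with 436, 1508 and 857.

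On the far side of the bare middle, the first site, at 99916587 to 99918368, scored 683, 1295 and 1201. It was followed by 99974126 to 99975721 with 648, 798 and 879, and by 100029960 to 100031438 with 364, 436 and 529. The last of this side, 100059541 to 100060771, had 431, 639 and 783. These 4 sites were above the median score of their list in every list. The left side also held the weakest sites of this group. At 99332813 to 99334131 the scores were 211, 339 and 377, and at 99441645 to 99443401 they were 188, 375 and 401. A neighbouring pair had the lowest vehicle scores, 83.1, 137 and 160 at 99434012 to 99434998, and 127, 421 and 271 at 99435070 to 99436077. The first of that pair was barely above the caller's lowest score of 80 in the vehicle list.

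No type I site reached 3100 in any list, whereas each flank had sites that scored 3100 in all 3 lists (98542880 to 98544783 on the left, 100180326 to 100182454 on the right). Median site scores of the cluster were 364 (vehicle), 421 (both labels) and 377 (4-OHT), against 487, 469 and 399 in the flanks together and 382, 398 and 344 in the rest of the chromosome. The left flank alone had 370, 384 and 325, so the cluster's median lay above it in 2 of the 3 lists. The medians were not told apart: in the vehicle list, the 95% interval was 83.1 to 683 in the cluster and 314 to 701 in the flanks. As a rank within its own list, the median type I site stood at the percentile 51.5, 52.9 and 53.5, near the middle of each list.

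**Figure D3:**
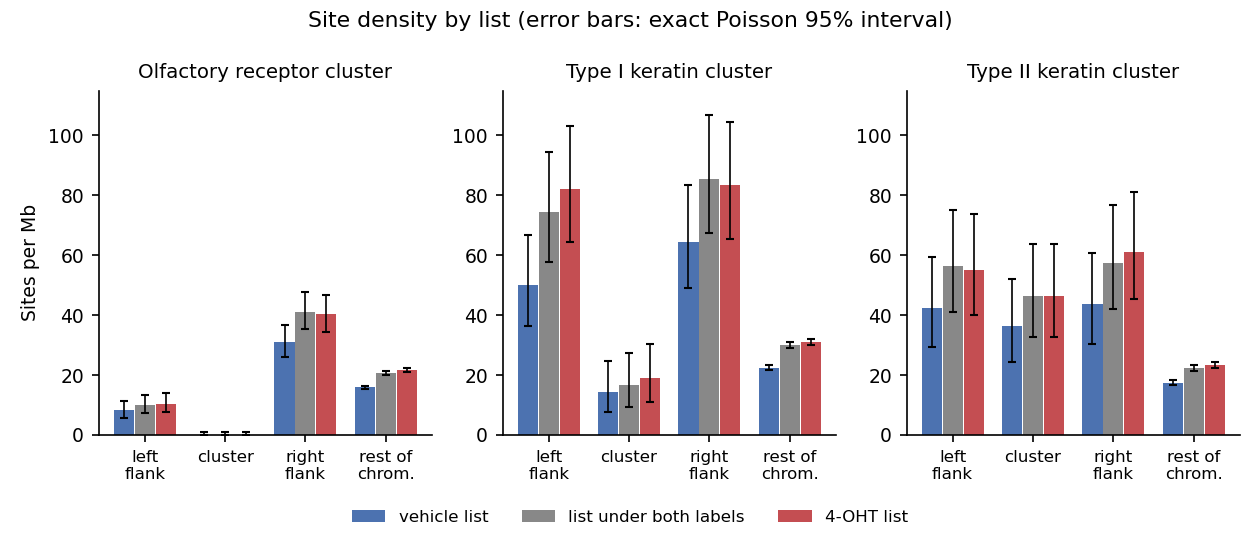
Sites per Mb (vertical axis) in each cluster, its flanks of the same length and the rest of its chromosome, with a bar per list and exact Poisson 95% intervals as error bars. The receptor cluster is at 0, the type I cluster (14.4 to 18.9) lies below both flanks, and the type II cluster (36.3 to 46.3) overlaps its flanks within the intervals and lies above the rest of its chromosome.

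The type II keratin cluster held more sites than the type I cluster, with higher median scores in every list. Its 0.8 Mb held 41 sites, or 51.3 per Mb (95% interval 36.8 to 69.5), with 36.3 in the vehicle list and 46.3 in each of the other lists. The flanks had 66.3 per Mb on the left and 68.8 on the right, so that the ratio to both flanks was 0.759 with an interval that includes 1 (0.517 to 1.10). The same ratio was 0.841 in the vehicle list, 0.813 in the list under both labels and 0.796 in the 4-OHT list. The rest of chromosome 15 had 27.4 per Mb, and the ratio to it was 1.87 (1.34 to 2.54). Of 3196 windows of this length over the genome, 2861 (89.5%) held 41 sites or fewer, and the median window held 10. These ratios depend on where the cluster is taken to end. With the limits drawn in by 10% of the length on each side, the ratio to the flanks became 0.438 (0.266 to 0.693) and that to the rest 1.31 (0.828 to 1.97).

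Most type II sites lay toward the sides of the cluster. In bins of 100 kb from left to right it held 9, 4, 0, 0, 1, 3, 12 and 12 sites. Over 3 equal pieces from left to right, the density was 48.8 per Mb (95% interval 26.0 to 83.4), 3.75 (0.0949 to 20.9) and 101 (66.7 to 147). The only site of the middle piece, at 101602177 to 101603890, scored 193 (vehicle), 367 (both labels) and 275 (4-OHT). It separated a stretch of 233 kb without a site (101368691 to 101602176) from one of 154 kb (101603891 to 101757669). The keratin gene order starts with Krt80 and Krt7 at one end and closes with Krt8 and Krt18 at the other, with hair and epidermal keratins between, but again positions of genes and sites were not matched. Whether the sites near the limits lie on genes of other families was not tested.

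At 4 of the 41 type II sites the score was 3100 or more in all 3 lists, beside 2731 of all 52181 sites (5.23%). They were 101198089 to 101202210, which crosses the left limit of the cluster, 101903504 to 101905452, 101927641 to 101935361 and 101965494 to 101967585. All 4 scored 3100 in every list except the last, which had 3206 in the vehicle list. The site at 101927641 to 101935361 was the widest of the cluster, 7721 bp, made of 2 peaks in the vehicle list, 2 in the list under both labels and 1 in the 4-OHT list. Thus 3 of the 4 lay in the last 100 kb of the cluster.

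A further group was at the ceiling in some lists. The site at 101813511 to 101815739 scored 2611 in the vehicle list and 3100 in both other lists, and 101283214 to 101286752 scored 2520 and then 3100 in both others. At 101806022 to 101808810 the scores were 1985 (vehicle), 3100 (both labels) and 1745 (4-OHT), so here the list under both labels stood alone at the ceiling. The remaining sites named by rank were 101997624 to 101998981 with 1009, 1186 and 1321, 101875502 to 101876952 with 889, 1673 and 1867, and 101803625 to 101805542 with 825, 1298 and 1124, each lowest in the vehicle list. Strong sites were not particular to the cluster: 100443577 to 100447396 in the left flank scored 3100 in all lists, and 102033009 to 102035846 in the right flank scored 3156, 3100 and 3100.

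Median site scores of the type II cluster were 525 (vehicle), 653 (both labels) and 565 (4-OHT), higher than in its flanks (290, 313 and 255) and in the rest of the chromosome (273, 296 and 270). The median percentile within each list was 59.3, 61.5 and 62.3. Peaks of the cluster covered 6.64%, 8.80% and 8.03% of it. The intervals of these medians overlapped those of the flanks in every list, with 263 to 889 in the cluster and 163 to 910 in the flanks in the vehicle list.

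**Figure D4:**
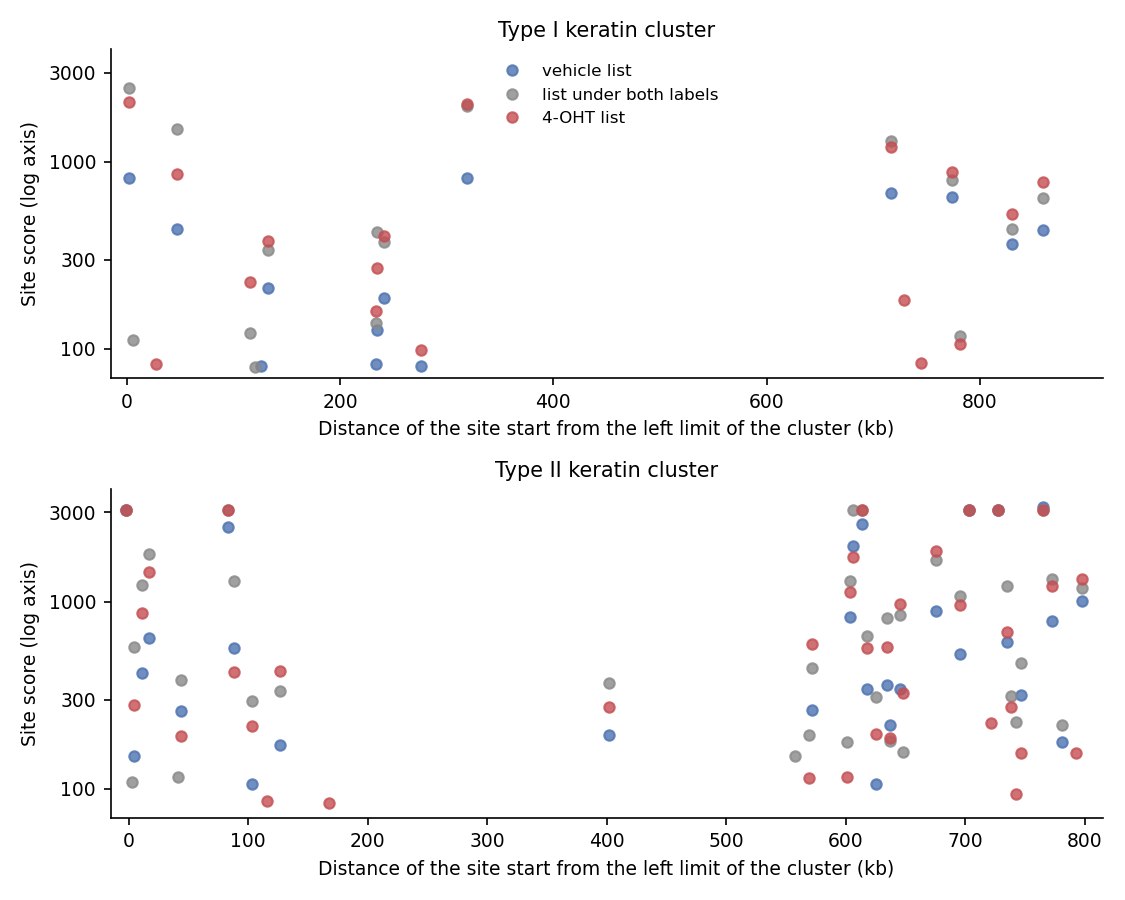
Score of each site in each list (vertical log axis, points coloured by list) against the distance of its start from the left limit of the keratin cluster in kb. Type I sites stay below 3100 and leave 395 kb empty, and type II sites reach 3100 on both sides of a middle with 1 site.

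How many lists a keratin site appeared in followed its score. Over both keratin clusters 39 of 61 sites were in all 3 lists, 9 in 2 and 13 in 1. All 28 sites with a score of 500 or more in some list were in all 3. So were 99.6% of such sites in the rest of chromosome 11 and 99.6% in the rest of chromosome 15. In the type I cluster, 11 of 20 sites were in all lists (55.0%, Wilson interval 34.2 to 74.2), against 63.4% in its flanks and 61.7% in the rest of the chromosome. Giving each type I site the share that its score class had in the rest of the chromosome would make 53.4%, close to the observed share. In the type II cluster, 28 of 41 were in all lists (68.3%, 53.0 to 80.4), against 61.1% in its flanks and 57.2% in the rest. The same calculation gave 76.8%, above the observed share and within its interval. The gap lay among the weaker sites: with a highest score of 100 to 200, 0 of 6 type II sites were in all lists (21.4% in the rest of the chromosome), and with 200 to 500, 7 of 12 were (77.2% in the rest).

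Of the 6 type I sites found in 1 list, 1 was in the vehicle list, 2 in the list under both labels and 3 in the 4-OHT list. The 7 such type II sites were 0, 3 and 4 in the same order. Over all sites the lists likewise differed, with 697, 4451 and 6416 sites found in that list alone. The highest scoring sites that some list lacked scored at most about the median of a list that held them. In the type I cluster, 99315813 to 99316781 had 122 in the list under both labels and 228 in the 4-OHT list, and 99928632 to 99929617 had 183 in the 4-OHT list alone. At 99981362 to 99982597 the scores were 117 and 106 in the list under both labels and the 4-OHT list, at 99205531 to 99206351 there was 112 in the list under both labels alone, and at 99476016 to 99476848 the vehicle list had 80.7 and the 4-OHT list 98.3. In the type II cluster, 101847997 to 101849104 had 157 in the list under both labels and 327 in the 4-OHT list, and 101938052 to 101940424 had 315 and 274. At 101942610 to 101944355 they had 228 and 94.1, and 101921439 to 101922425 had 224 in the 4-OHT list alone. Neither cluster held a strong site that was private to a list.

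Between the 2 lists of undisputed label, the keratin clusters differed as the whole lists did. In the type I cluster, 5 of the 17 sites in the 4-OHT list lacked a vehicle peak (29.4%, Wilson interval 13.3 to 53.1), and in the type II cluster 9 of 37 (24.3%, 13.4 to 40.1), beside 29.6% of all 4-OHT sites. In the other direction, 1 of 13 vehicle sites of the type I cluster had no 4-OHT peak (7.69%, 1.37 to 33.3) and 1 of 29 of the type II cluster (3.45%, 0.611 to 17.2), beside 3.87% of all vehicle sites. The type I site, 99325749 to 99326643, scored 81.5 in the vehicle list, close to the lowest score a list holds. The type II site, 101980716 to 101981968, scored 177 in the vehicle list and 219 in the list under both labels. All 4 shares had the value of the whole lists within their intervals. With each list cut to its 35149 highest peaks, 15.4% of the type I and 12.5% of the type II sites of the 4-OHT list lacked a vehicle peak, beside 12.5% of all sites of that list. In the other direction the shares at equal length were 15.4% (type I) and 3.45% (type II), beside 11.5% of all vehicle sites. Apart from the type II vehicle share, which stayed at 3.45%, these shares moved with the length of the lists. The type I cluster then had the same share in both directions, on few sites and with a wide Wilson interval for each (4.33 to 42.2).

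At keratin sites with a peak in both lists, scores were mostly higher in the 4-OHT list, as they were at most sites of the genome. Over all 31871 sites found in all 3 lists, 83.6% scored higher in the 4-OHT than in the vehicle list, with a median score ratio of 1.53. At the 11 type I sites all 11 scored higher, with a median ratio of 1.92. The list under both labels gave a like picture there, with 11 of 11 higher and a median ratio of 1.90. Over all 31871 sites that list scored above the vehicle list at 84.9%, with a median ratio of 1.68. In the flanks of the type I cluster 87 of 102 sites scored higher in the 4-OHT list, with a median ratio of 1.72. Lists that differ in depth can differ in score at every site, and the part of depth in these differences was not tested.

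At the 28 type II sites of all lists, 19 scored higher in the 4-OHT list and 9 did not (32.1%, beside 16.4% of all sites), with a median ratio of 1.39. In the flanks 12 of 66 sites did not score higher (18.2%), and in the rest of chromosome 15 320 of 1533 (20.9%). Of these 9, 4 stood at 3100 or more in both lists, where the pile-up of scores hides any difference. The same held for 2733 of the 31871 sites found in all 3 lists. The other 5, chosen after their values were seen and with no matching share over all sites, scored lower in the 4-OHT list. They were 101243979 to 101245873 with 261 (vehicle), 380 (both labels) and 191 (4-OHT), 101287821 to 101290236 with 566, 1295 and 423, and 101946754 to 101949183 with 318, 473 and 156. The fourth, 101836923 to 101838383, had 219, 181 and 187, and the fifth was 101806022 to 101808810, given above. At 4 of the 5 the list under both labels was the highest of the 3. Since the 5 were picked with the vehicle list above the 4-OHT list, this only asks for a score above the vehicle list. Most sites met that condition. In the list under both labels 23 of the 28 sites scored higher than in the vehicle list (82.1%, beside 84.9% of all sites). Their median ratio was 1.78, beside 1.68 over all sites.

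**Figure D5:**
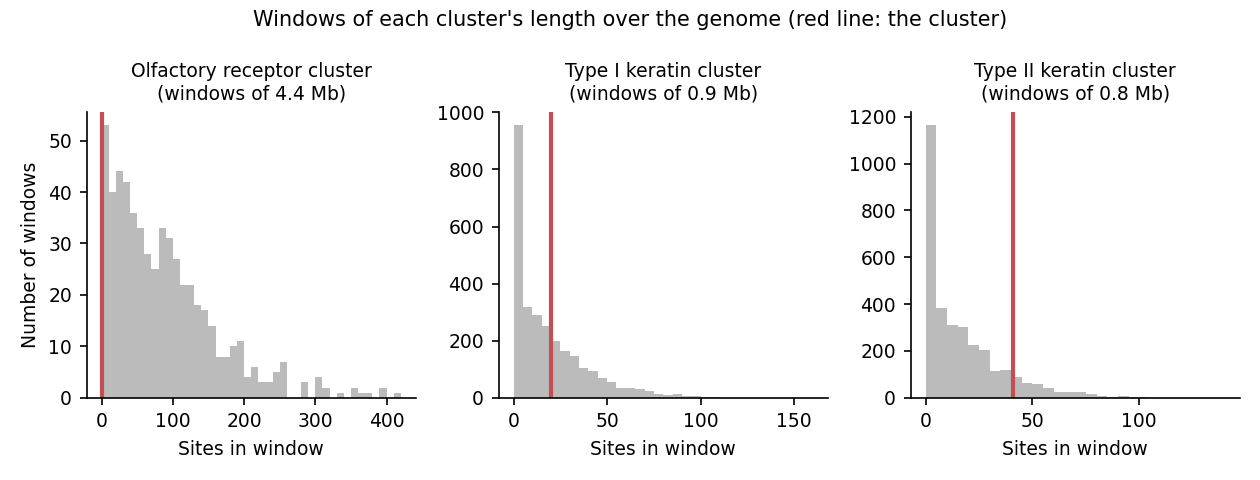
Number of windows (vertical axis) by the number of sites they hold (horizontal axis), for windows of the length of each cluster laid end to end over the chromosomes, with the cluster as a red line. The receptor cluster lies at 0 with 10 of 567 windows, the type I cluster has 65.8% of windows at or below its 20 sites and the type II cluster 89.5% at or below its 41.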

How the data were processed

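Peak lists of 4 DNase-seq libraries were used. Per the submitters' processing notes, BWA 0.6.2, SAMtools, MACS 1.4.1 and mm9 were used, with no settings, and no source used here gives the use of the input. The deposited score in each list is the authors' peak caller's own value, and read depth is unknown. The members and the gene lists were chosen with earlier results of these data known. Peaks of the 3 distinct lists that overlapped by 1 bp or more were merged into sites (checked with bedtools 2.31.1, and tested on 3000 simulated sites, of which 100% were recovered by list membership). Starts are counted from 1. Named were keratin sites in all 3 lists if 20 or fewer, otherwise the 10 with the highest lowest score, up to 5 top sites of fewer lists, and each flank's top site, with ties in genome order. Densities carry exact Poisson intervals, their ratios exact conditional binomial intervals and shares Wilson intervals, all at 95% and for counting error only. There was no test between treatments. Promoter sequences are from RefSeq (GRCm38.p6). Python 3.11.15, numpy 2.4.6, scipy 1.17.1 and matplotlib 3.10.9 were used. Alternatives were a score of at least 100, lists of equal length, other merging and membership rules, narrower limits, window medians and leaving out each list.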

Additional observations from a re-analysis of the deposited data

How the results depend on the processing

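Of 135 alternative values for 18 results, 128 lay within the counting interval of the main value, which was often wide, and 7 lay outside it. A reversal was defined only for density ratios whose main interval excluded 1, and none of these crossed 1. Shares and median scores could not reverse by this rule. An interval that came to include 1 was not counted, such as 0.828 to 1.97 for the type II cluster against the rest with narrower limits. The density ratio of the receptor cluster was 0 in every setting. This was fixed in advance, because no setting could add a peak to a cluster that held none in any list. Its settings are counted among the 128 and say nothing about robustness. With its limits drawn in by 10% on each side, the type II keratin cluster had a density ratio of 0.438 to its flanks and 1.31 to the rest of the chromosome, and 0% of its vehicle sites lacked a 4-OHT peak. Against the median window of chromosome 15 its ratio was 3.57. With lists of equal length (35149 peaks), 12.5% of its 4-OHT sites had no vehicle peak. Asking for presence in the 2 lists left after leaving out each list gave 72.5% to 81.0% of type II sites, the highest without the vehicle list, since fewer lists were required. With scores of at least 100, 0% of type I vehicle sites lacked a 4-OHT peak. No paired analysis was possible because 1 list stands under both labels and the 2 other lists do not share a replicate number. Unknown depth limits every absence to not detected.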
